A study of Mus musculus with 15 samples.

Results

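The genes described here are 43 antiviral genes that type I interferon induces, picked by symbol from the 17493 genes of the study's count tables and followed in mouse CD8+ T cells. All 43 have a row in the tables. A filter on low counts left 41 of them for testing. Oas1g, with 1 count in the 15 libraries together, and Ifi44, with 49, were left out by it.

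Type I interferons bind a receptor made of IFNAR1 and IFNAR2, whose kinases TYK2 and JAK1 phosphorylate transcription factors. These join IRF9 and bind a DNA element, the interferon-stimulated response element (ISRE), upstream of the target genes. The products detect viral nucleic acid, block translation, cut or modify viral RNA, or tag proteins with ISG15. Interferon gamma, which activated CD8+ T cells secrete themselves, acts through another receptor on an element called GAS, and it shares many targets with type I interferon. Resting lymphocytes hold a low basal level of these transcripts.

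The T cells carried the transgenic OT-I receptor, which sees an ovalbumin peptide, and were taken from female OT-1 mice (spleen and lymph nodes) of the strain C57BL/6-Tg(TcraTcrb)1100Mjb. There were 5 groups of 3 libraries: untreated T cells taken at 0 h, and T cells kept with 1 of 2 stimuli for 8 h or for 22 h, at 50000 T cells per well. Immunofilaments (IF), synthetic filaments labelled IF-pMHC(SIIT)/IL-2 after the peptide-MHC complex and the interleukin-2 they carried, were used at 5 ng/ml. Dendritic cells (DC), grown with Flt-3 ligand and pulsed with the SIITFEKL peptide, were used at 20000 per well. The labels name no interleukin-2 for the DC wells. All 5 groups were taken through a sort for viable CD8+ CD103- cells before RNA was sequenced by a CEL-seq protocol. No culture without stimulus at 8 h or 22 h was among the samples, so time in culture and stimulus cannot be told apart in a comparison with 0 h. The labels do not say whether the replicates, named Don 1 to 3, were separate animals, and p-values measure only the spread between these libraries.

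Each library held between 2892874 and 19806730 counts over 11427 to 13591 detected genes. Levels are given in CPM, the counts of a gene per library size scaled to a common total with TMM factors, and are listed for replicates 1, 2 and 3 in that order. The level that 3 counts stand for was between 0.153 and 0.995 CPM. T cell marker genes, 9 of the 12 listed with a row, summed to 8871 to 9603 CPM in unstimulated cells and 4045 to 6435 CPM in the stimulated libraries. Of the 9, 5 to 8 were lower and 0 higher in each stimulated group than in unstimulated cells, where 3.44% to 4.72% of all genes were lower. Between the stimuli at 22 h, 4 of the 9 were higher with IF than with DC and 0 lower, with a median of 0.36, where 1.23% of all genes were higher. Their part in the results was not tested. Replicates 2 and 3 of IF 22 h stood apart from the other libraries: mitochondrial rRNA took 0.179% and 0.146% of their counts, against 3.17% in replicate 1 and 1.82% to 4.49% in the other 12 libraries. Results on IF 22 h are therefore given with and without this pair. Exons of Dhx58, Eif2ak2, Ifi35, Oasl1, Slfn5 and Usp18 overlap genes on the opposite strand, and those of Herc6, Parp14 and Rtp4 predicted genes on the same strand. Whether counting used the strand is not given in the sources used here, so reads of these pairs may have been counted together. Of 23 close copies of the genes, 15 had a row and 11 could be tested. At IF 22 h 0 of the 11 were lower or higher than in unstimulated cells, with a median log2 difference of -0.58. Of all genes 3.44% were lower and 2.63% higher. Against DC 22 h 1 of the 11 was lower, where 1.2% of all genes were. A fall of a transcript in bulk RNA can be fewer cells of a type or less RNA per cell, and these cannot be told apart.

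Promoter sequence was read from RefSeq (build GRCm38.p6) for 30 of the 43 genes. A short form of the ISRE (GAAA, 2 bases of any kind and GAAA again) was searched on both strands in the 300 bases from 250 before to 50 after each start. It occurred at 15 of the 30 genes (50.0%) and at 3.99% of the 27025 gene symbols of the table. The same letters followed by a C were found at 11 of the 30 genes, 36.7%, and at 0.944% of all symbols. Of the 20 genes with a window that were lower at IF 22 h than in unstimulated cells, 11 held the short form, and of the 8 other tested genes 3 held it. The GAS letters TTCNNNGAA were found at 7 of the 30 genes (23.3%) and at 9.55% of all symbols. Overlapping matches were counted as they fell, and a match is a description of the letters, not a binding site.

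The promoters of 7 genes are shown as the 160 bases before the RefSeq start, 5′ to 3′ on the strand of the gene, with each match of the short ISRE form, on either strand, in capitals. Isg15 (chr4:156200819-156200978, minus strand), Ifit1 (chr19:34640729-34640888, plus strand) and Ifit3 (chr19:34583369-34583528, plus strand) are shown as genes lower at IF 22 h whose stretch held a match, and were picked after their values were seen. Oasl1 (chr5:114923080-114923239, plus strand) fell too and had no match. The same stretches of Isg20 and Lgals3bp, which with Oasl1 had the lowest adjusted p-values at IF 22 h among the genes with a promoter sequence, held no match either and are not shown. Ifit2 (chr19:34550534-34550693), Irgm2 (chr11:58214817-58214976) and Slfn1 (chr11:83116660-83116819), all on the plus strand, are shown because their fitted levels at IF 22 h were not below unstimulated cells. Of these, Irgm2 had a match, 64 bases before its start. The Irgm2 stretch lies inside the longer gene model that GENCODE vM21 gives for this gene.
Isg15: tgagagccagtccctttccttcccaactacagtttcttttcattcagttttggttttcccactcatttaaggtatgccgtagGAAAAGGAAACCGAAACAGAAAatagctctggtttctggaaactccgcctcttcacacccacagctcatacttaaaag
Ifit1: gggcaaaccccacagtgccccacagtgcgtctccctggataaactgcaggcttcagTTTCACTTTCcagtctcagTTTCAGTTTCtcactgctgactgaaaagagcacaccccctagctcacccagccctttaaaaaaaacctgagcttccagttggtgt
Ifit3: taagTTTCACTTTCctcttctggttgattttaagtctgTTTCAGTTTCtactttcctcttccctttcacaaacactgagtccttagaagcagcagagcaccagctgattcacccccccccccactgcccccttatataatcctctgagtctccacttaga
Oasl1: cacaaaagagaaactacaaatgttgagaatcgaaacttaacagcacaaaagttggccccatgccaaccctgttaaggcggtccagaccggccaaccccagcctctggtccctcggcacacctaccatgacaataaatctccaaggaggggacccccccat
Ifit2: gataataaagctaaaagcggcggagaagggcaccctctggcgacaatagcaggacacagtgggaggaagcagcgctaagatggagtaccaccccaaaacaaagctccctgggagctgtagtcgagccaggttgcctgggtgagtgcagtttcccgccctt
Irgm2: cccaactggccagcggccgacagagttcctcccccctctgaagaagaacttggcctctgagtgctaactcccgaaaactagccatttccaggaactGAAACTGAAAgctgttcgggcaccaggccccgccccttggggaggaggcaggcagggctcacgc
Slfn1: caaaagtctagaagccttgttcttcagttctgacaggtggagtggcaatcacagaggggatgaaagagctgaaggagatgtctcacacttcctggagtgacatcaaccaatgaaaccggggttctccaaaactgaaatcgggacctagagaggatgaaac

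Against unstimulated cells, 28 of the 41 tested genes were lower at IF 22 h and 0 were higher by edgeR's quasi-likelihood test at an adjusted p of 0.05, where 3.44% of all 10831 genes tested were lower and 2.63% were higher. At an unadjusted p under 0.05, 33 were lower and 1 was higher, against 2225 of the 10831 genes in either direction, and DESeq2 called 32 lower, and 1066 genes in all. The median log2 difference was -1.98 over the 41 genes and 0.01 over all genes. Fitted differences ran from -4.68 for Isg15 to 0.73 for Iigp1, with 35 below 0 and 6 at or above it. All 3 IF 22 h libraries lay below all 3 unstimulated ones for 33 of the 41 genes, against 14.7% of all genes. They lay below all 12 other libraries for 19 of the 41, against 1.08% of all genes.

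Without replicates 2 and 3 of IF 22 h, when the lone library left was taken to vary like the other groups, 13 of the 28 stayed lower, and the genes' median was -2.19. They were Bst2, Ifi27l2a, Ifit1, Isg15, Isg20, Lgals3bp, Mx1, Oasl1, Oasl2, Rtp4, Slfn5, Xaf1 and Zbp1. In that fit 99 of 11889 genes were called in all. Replicate 1 by itself lay below every unstimulated library for 35 of the 41 genes tested, against 29.3% of all genes. It lay below all 12 libraries of the other groups for 23 of the 41, against 5.55% of all genes.

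At 22 h with DC the same genes gave another picture. Against unstimulated cells 5 of the 41 were higher and 3 lower, where 3.41% of all genes were higher and 4.35% lower, and the median log2 difference was -0.13. With library totals alone as the scale, the split was 8 higher and 1 lower, with 1586 genes called in all against 840, and without a low-count filter it was 5 higher and 6 lower, with 1278 of 17123 genes called. The scale by library totals also moved the median of all genes from 0.04 to 0.37. The higher genes were Irgm2, Iigp1, Ifi47, Ly6a and Parp14, and the lower ones Isg20, Mx1 and Slfn5. Irgm2, Ly6a, Parp14 and Slfn5 passed whichever single library was left out. Without DC 22 h replicate 2 or unstimulated replicate 3, 4 genes remained past the threshold, and without unstimulated replicate 2 or DC 22 h replicate 1, 5 did.

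**Figure D1:**
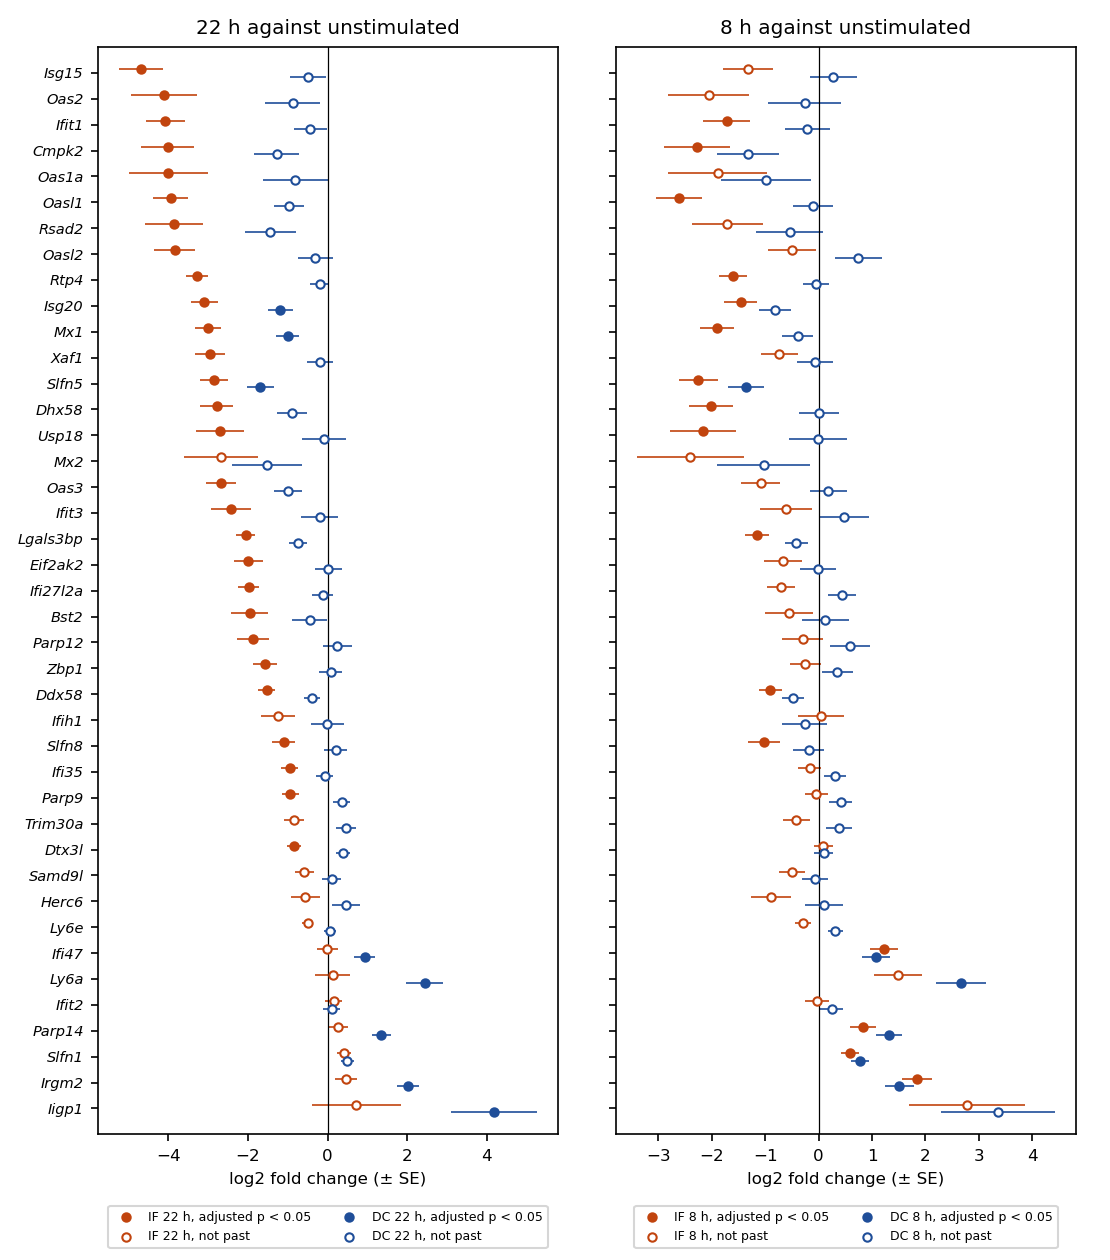
Fitted log2 fold change against unstimulated cells (x axis, ± SE, n = 3 libraries a group) for each of the 41 tested genes (y axis), at 22 h on the left and 8 h on the right, IF in rust red and DC in blue. Filled points passed an adjusted p of 0.05; 28 IF points on the left are filled below 0. Of the DC points on the left 5 are filled above 0 and 3 below it, for Slfn5, Isg20 and Mx1, and the median of the DC points is -0.13.

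ISG15 is a ubiquitin-like protein that interferon-treated cells attach to other proteins, USP18 removes it and also damps signalling at IFNAR2, and HERC6 is the ligase that attaches it in mouse. Isg15 stood at 9.69, 24.9 and 16.8 CPM in unstimulated cells, at 0.238, 0.478 and 1.02 CPM at IF 22 h and at 11.3, 12.4 and 12.8 CPM at DC 22 h. Its IF 22 h values rest on 2, 4 and 20 counts. At 8 h Isg15 was at 7.67, 1.99 and 10.4 CPM with IF and 15.7, 27.1 and 19.4 CPM with DC. Every IF 22 h library lay below every other library, and the log2 difference from unstimulated cells was -4.68 ± 0.56 (SE; adjusted p = 9.46e-05). Usp18 stood at 4.11, 15.5 and 13.3 CPM in unstimulated cells, 0.595, 3.11 and 1.33 CPM at IF 22 h and 7.17, 14.6 and 8.97 CPM at DC 22 h. At 8 h Usp18 was at 3.93, 1.99 and 1.07 CPM with IF and 6.73, 12.9 and 12.9 CPM with DC. Usp18 was lower than in unstimulated cells at both IF times (-2.16 ± 0.62 at 8 h and -2.71 ± 0.61 at 22 h, SE), though the 22 h call ended without unstimulated replicate 2 (adjusted p = 0.068) or IF 22 h replicate 3 (adjusted p = 0.0729). The 8 h call ended without unstimulated replicate 2 or 3 or any IF 8 h library (adjusted p from 0.0507 to 0.154), and with library totals alone as the scale (adjusted p = 0.0563). Herc6 did not pass at 22 h: its values were 6.31 to 13.01 CPM in unstimulated cells, 4.76 to 10.995 CPM at IF 22 h and 13.2 to 15.5 CPM at DC 22 h, and the first 2 ranges overlap.

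**Figure D2:**
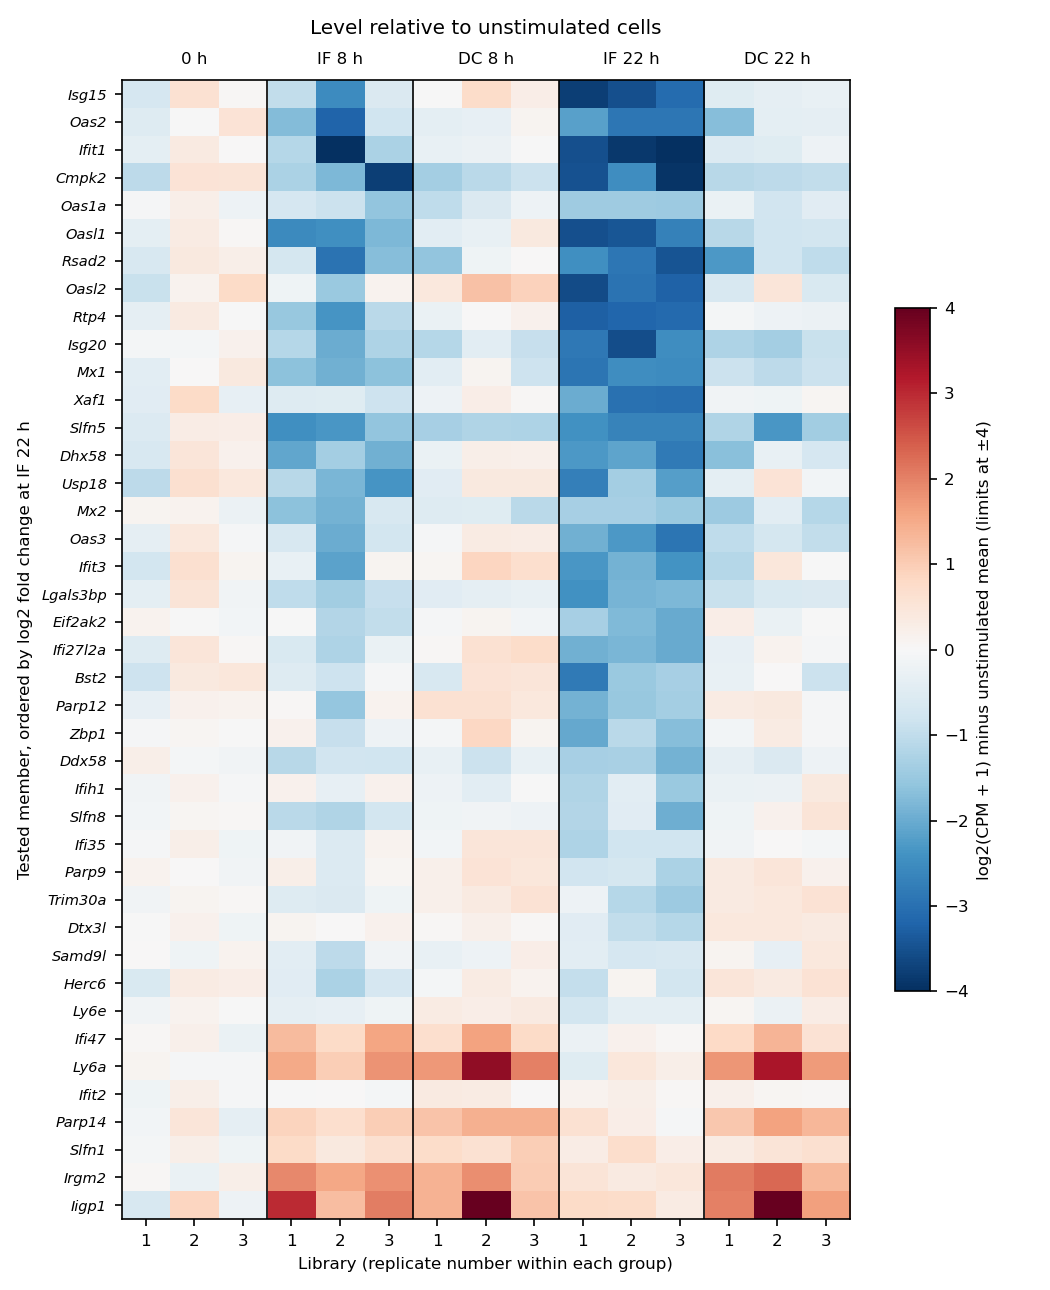
Each of the 15 libraries (columns, grouped by stimulus and time) for the 41 tested genes (rows), coloured by log2(CPM + 1) minus the gene's unstimulated mean, with colours held at ±4. The 3 IF 22 h columns are blue for most rows, while the lowest rows from Ifi47 down, other than Ifit2, are mostly red or pale red at IF 8 h and in both DC groups.

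The IFIT proteins bind viral RNA that lacks host marks and hold it from translation, and EIF2AK2, also known as PKR, stops translation when it binds double-stranded RNA. The 3 Ifit genes lie near each other on chromosome 19, at 34550694-34576419 (Ifit2), 34583531-34588731 (Ifit3) and 34640871-34650009 (Ifit1) in GRCm38. Ifit1 and Ifit3 were lower at IF 22 h than in unstimulated cells, and Ifit2 did not pass. Ifit1 stood at 92.5, 155 and 123 CPM in unstimulated cells, 9.52, 7.29 and 5.36 CPM at IF 22 h and 82.1, 85.9 and 106 CPM at DC 22 h. At 8 h Ifit1 was at 54.6, 6.63 and 49.6 CPM with IF, where replicate 2 was far below the others, and at 97.3, 103 and 119 CPM with DC. It fell by 4.08 on the log2 scale at IF 22 h (SE 0.49; adjusted p = 9.73e-05).

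Ifit3 stood at 23.5, 63.1 and 43.3 CPM in unstimulated cells, 7.26, 10.2 and 6.79 CPM at IF 22 h and 17.6, 55.7 and 39.5 CPM at DC 22 h. At 8 h Ifit3 was at 32.1, 8.29 and 43.4 CPM with IF and 42.4, 73.7 and 64.6 CPM with DC. Its difference at IF 22 h was -2.43 ± 0.51 (SE; adjusted p = 0.00861), a call that ended without unstimulated replicate 2 (adjusted p = 0.0509) or IF 22 h replicate 3 (adjusted p = 0.0519). A close copy, Ifit3b, was not analysed here, and how reads from both were counted is not given in the sources used here. Ifit2, the neighbour of Ifit3, had nearly the same level throughout: 12.5, 17.2 and 13.7 CPM in unstimulated cells, 14.3, 14.6 and 13.7 CPM at IF 8 h, 18.5, 18.4 and 14.5 CPM at DC 8 h, 16.1, 17.2 and 14.9 CPM at IF 22 h and 16.8, 15.2 and 14.7 CPM at DC 22 h. Each stimulated group overlapped the unstimulated one. The IF 22 h difference from unstimulated cells was 0.15 ± 0.21 (SE; adjusted p = 0.752), and it ran from 0.05 to 0.35 over all alternatives tried. Ifit2 was also the 1 tested gene of the 41 that was not below DC at 22 h, at 0.04 ± 0.21 (SE). Its promoter stretch above held no match of the ISRE form, nor did the stretch before its second RefSeq start. Ifit1 and Ifit3 were shown because they held one, so that choice fixed the contrast with Ifit2. The form was at 11 of the 20 lower genes with a window and at 3 of the 8 others.

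Eif2ak2 stood at 12.9, 11.4 and 10.7 CPM in unstimulated cells, 4.05, 2.75 and 2.14 CPM at IF 22 h and 14.3, 9.51 and 11.5 CPM at DC 22 h. At 8 h Eif2ak2 was at 11.6, 4.64 and 5.36 CPM with IF and 11.3, 12.7 and 10.7 CPM with DC. It was lower at IF 22 h (log2 difference -1.99 ± 0.36, SE). Samd9l, a translation inhibitor and restriction factor of poxviruses, lay at 54.4 to 67.3 CPM in unstimulated cells and 38.2 to 45.2 CPM at IF 22 h without overlap, but did not pass (-0.59 ± 0.24, adjusted p = 0.171).

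**Figure D3:**
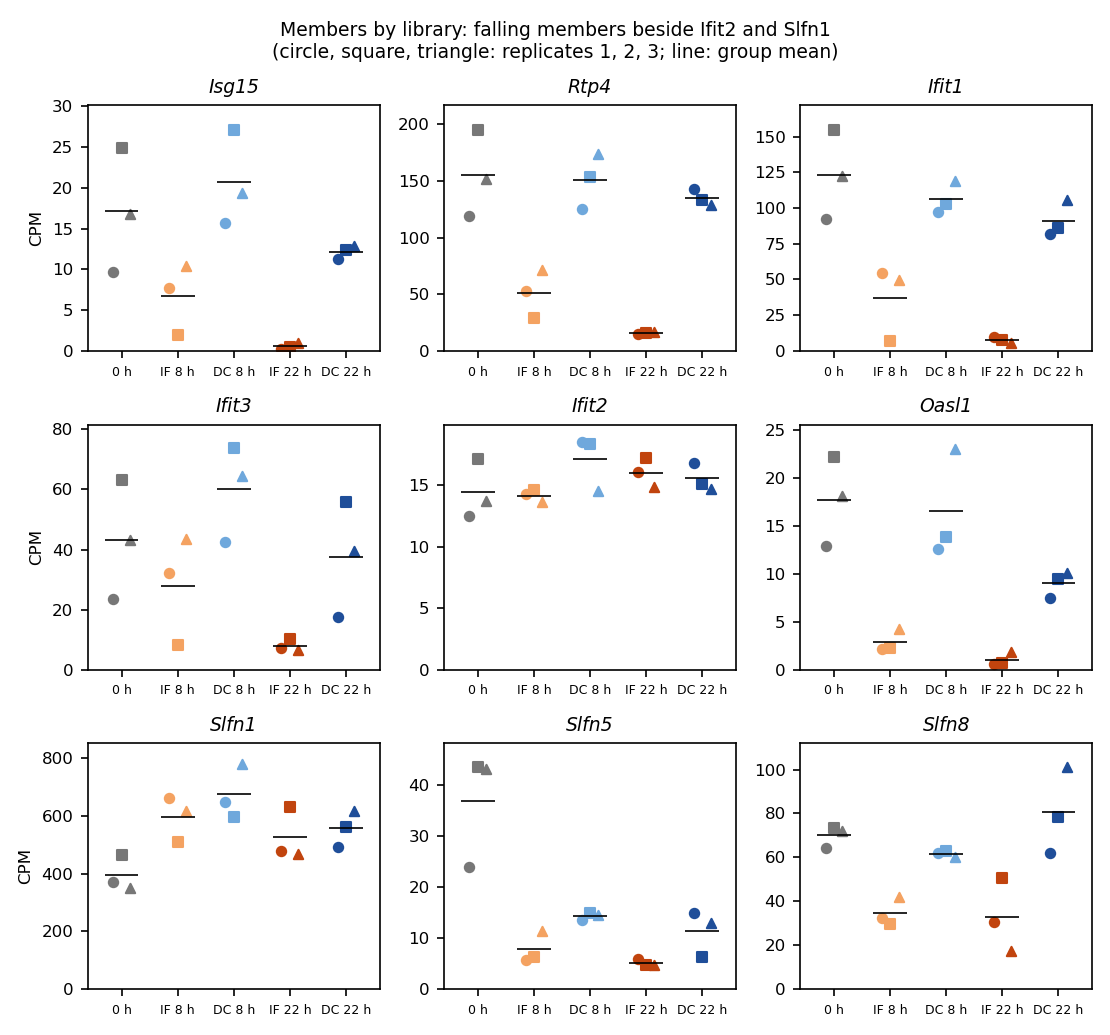
CPM (y axes, linear from 0) in each library of 9 genes by group (x axes); circles, squares and triangles are replicates 1, 2 and 3 and lines are group means. Isg15, Rtp4, Ifit1, Ifit3, Oasl1 and Slfn5 sit lowest at IF 22 h on the mean, while Ifit2 stays between 12.5 and 18.5 CPM in all 15 libraries and Slfn1 is not below its unstimulated mean in any stimulated group.

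The OAS enzymes make 2′-5′ oligoadenylates that switch on the nuclease RNase L, the OASL proteins are relatives that modify RNA sensing, and ISG20 is an exonuclease. All 6 tested genes of this set were lower at IF 22 h than in unstimulated cells, where 3.44% of all genes were. Oasl1 stood at 12.9, 22.2 and 18.2 CPM in unstimulated cells, 0.595, 0.717 and 1.84 CPM at IF 22 h and 7.51, 9.51 and 10.1 CPM at DC 22 h. At 8 h Oasl1 was at 2.14, 2.32 and 4.29 CPM with IF and 12.7, 13.9 and 23.1 CPM with DC. IF libraries of either time lay below all the others, at -2.61 ± 0.44 at 8 h and -3.94 ± 0.44 at 22 h against unstimulated cells (SE). Oasl2 stood at 16.001, 33.8 and 53.3 CPM in unstimulated cells, 1.67, 3.11 and 2.35 CPM at IF 22 h and 19.3, 43.2 and 19.997 CPM at DC 22 h. At 8 h Oasl2 was at 27.5, 10.3 and 33.8 CPM with IF and 41.7, 70.5 and 59.6 CPM with DC, and it fell between 8 h and 22 h with IF (-3.33 ± 0.51 SE; adjusted p = 0.00735).

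Oas3 stood at 17.3, 30.4 and 21.9 CPM in unstimulated cells, 5.24, 3.82 and 2.09 CPM at IF 22 h and 10.6, 13.5 and 10.9 CPM at DC 22 h. At 8 h Oas3 was at 14.1, 4.97 and 13.1 CPM with IF and 21.9, 28.9 and 28.0 CPM with DC. Oas3 was lower at IF 22 h (log2 difference -2.67 ± 0.38, SE). Oas2 stood at 5.43, 8.13 and 12.6 CPM in unstimulated cells, 1.07, 0.239 and 0.255 CPM at IF 22 h and 1.82, 6.08 and 6.15 CPM at DC 22 h. At 8 h Oas2 was at 1.78, 0 and 4.29 CPM with IF and 6.14, 6.46 and 9.10 CPM with DC. Its difference at IF 22 h was -4.11 ± 0.83 (SE), from 9, 2 and 5 counts there, and it ran from -5.03 to -2.99 over the alternatives. The IF 8 h value of 0 is of replicate 2, where it allows up to 0.995 CPM, a limit that covers counting error only.

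Oas1a was near the detection limit: 1.91, 2.53 and 1.63 CPM in unstimulated cells, 0.119, 0.120 and 0.102 CPM at IF 22 h and 1.48, 0.774 and 1.20 CPM at DC 22 h. The IF 22 h libraries held 1, 1 and 2 counts, each under the 3 counts taken as the limit, so its fold is not given. At 8 h Oas1a was at 0.892, 0.663 and 0 CPM with IF and 0.495, 0.994 and 1.62 CPM with DC. Its call at IF 22 h (adjusted p = 0.0239) ended when any 1 of the 6 libraries was left out, with adjusted p-values up to 0.134. Isg20 stood at 41.1, 41.4 and 49.6 CPM in unstimulated cells, 5.12, 2.87 and 7.09 CPM at IF 22 h and 18.1, 16.5 and 23.4 CPM at DC 22 h. At 8 h Isg20 was at 19.3, 10.3 and 17.9 CPM with IF and 19.3, 32.4 and 22.9 CPM with DC. Every stimulated library lay below every unstimulated one, and Isg20 was the gene of this set that was also lower with DC at 22 h (-1.18 ± 0.30 with DC and -3.09 ± 0.33 with IF, SE). The DC call ended without any of 5 of the 6 libraries, with adjusted p-values from 0.0588 to 0.0943.

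Among the sensors, RIG-I (Ddx58) and MDA5 (Ifih1) detect viral RNA in the cytosol, LGP2 (Dhx58) regulates both, and ZBP1 binds Z-form nucleic acid. Ddx58 stood at 125, 99.9 and 95.7 CPM in unstimulated cells, 41.2, 42.7 and 27.7 CPM at IF 22 h and 82.4, 70.3 and 91.5 CPM at DC 22 h. At 8 h Ddx58 was at 48.5, 62.3 and 60.5 CPM with IF and 86.6, 58.1 and 86.2 CPM with DC. It was lower with IF at 8 h (-0.91 ± 0.21, SE) and 22 h (-1.53 ± 0.22, SE). Dhx58 stood at 13.8, 30.9 and 24.9 CPM in unstimulated cells, 3.69, 4.30 and 2.25 CPM at IF 22 h and 6.26, 17.7 and 13.5 CPM at DC 22 h. At 8 h Dhx58 was at 4.46, 7.96 and 5.09 CPM with IF and 18.0, 26.2 and 25.7 CPM with DC, without overlap. Dhx58 was lower with IF at both times (-2.01 ± 0.42 at 8 h and -2.79 ± 0.41 at 22 h, SE).

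Zbp1 stood at 143, 157 and 146 CPM in unstimulated cells, 35.5, 69.8 and 44.6 CPM at IF 22 h and 138, 188 and 143 CPM at DC 22 h. At 8 h Zbp1 was at 168, 77.2 and 129 CPM with IF and 141, 267 and 160.3 CPM with DC. It was lower at IF 22 h (log2 difference -1.57 ± 0.30, SE). Ifih1 did not pass (-1.26 ± 0.43, adjusted p = 0.0965), with 5.43 to 6.87 CPM in unstimulated cells and 1.48 to 4.18 CPM at IF 22 h, although DESeq2 called it lower (adjusted p = 0.04).

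MX1 and MX2 are dynamin-like GTPases that trap viral nucleocapsids, and IRGM2, IIGP1 and IFI47 are immunity-related GTPases, which act on the vacuoles of intracellular parasites and are textbook targets of interferon gamma. Mx1 was lower at IF 22 h than in unstimulated cells, and 0 of the 3 immunity-related GTPase genes were. Mx1 stood at 17.6, 24.4 and 31.7 CPM in unstimulated cells, 2.26, 3.47 and 3.32 CPM at IF 22 h and 12.9, 11.1 and 12.6 CPM at DC 22 h. At 8 h Mx1 was at 6.96, 5.64 and 6.97 CPM with IF and 17.5, 25.6 and 12.9 CPM with DC. It was lower with IF at 22 h (-3.01 ± 0.32, SE; adjusted p = 2.88e-05) and with DC at 22 h (-1.004 ± 0.29, SE; adjusted p = 0.0416), the DC call ending without any DC 22 h library or unstimulated replicate 2 or 3 (adjusted p from 0.073 to 0.2). That call also ended with library totals alone as the scale (adjusted p = 0.113), with no low-count filter (adjusted p = 0.057) and in a fit of the 2 groups alone (adjusted p = 0.0712). Mx2, at 2.09 to 3.07 CPM in unstimulated cells and 0.306 to 0.478 CPM at IF 22 h, did not pass (-2.68 ± 0.93, adjusted p = 0.107). DESeq2 called it lower (adjusted p = 0.0242). GENCODE lists Mx2 as a polymorphic pseudogene, and protein was not measured for either Mx gene.

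Irgm2 stood at 14.7, 11.4 and 16.5 CPM in unstimulated cells and 20.6, 18.2 and 19.6 CPM at IF 22 h, every value of the second group above every value of the first (0.46 ± 0.27, SE; adjusted p = 0.377). It was at 55.8, 43.1 and 52.8 CPM at IF 8 h, 38.1, 53.5 and 29.4 CPM at DC 8 h and 62.8, 72.9 and 35.7 CPM at DC 22 h. Irgm2 rose with both stimuli at 8 h (1.84 ± 0.28 with IF and 1.51 ± 0.28 with DC, SE), stayed up with DC at 22 h (2.01 ± 0.28, SE) and was lower at IF 22 h than at IF 8 h (-1.38 ± 0.27, SE; adjusted p = 0.0192). Its exons overlap those of Igtp, a related GTPase gene on the same strand, and reads of either could have been counted for it.

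Ifi47 stood at 381, 425 and 307 CPM in unstimulated cells, 309, 414 and 383 CPM at IF 22 h and 644, 936 and 545 CPM at DC 22 h. At 8 h Ifi47 was at 885, 620.0 and 1098 CPM with IF and 587, 1129.8 and 624 CPM with DC. Its IF 22 h level overlapped that of unstimulated cells (-0.01 ± 0.26, SE), a difference whose sign turned under 5 of the alternatives, while it rose at IF 8 h (1.23 ± 0.27), DC 8 h (1.07 ± 0.27) and DC 22 h (0.93 ± 0.27, all SE). The DC 22 h call ended without any of the 3 unstimulated libraries or DC 22 h replicates 1 and 2, with adjusted p-values from 0.068 to 0.16. Its exons overlap Olfr56 on the same strand. Iigp1 stood at 0.440, 3.07 and 0.931 CPM in unstimulated cells, 2.86, 2.75 and 1.84 CPM at IF 22 h and 8.08, 66.8 and 5.98 CPM at DC 22 h. Its unstimulated values rest on 3, 17 and 4 counts, and its IF 22 h difference of 0.73 ± 1.12 (SE) ran from 0.23 to 1.90 over the alternatives. At 8 h Iigp1 was at 16.9, 4.31 and 8.31 CPM with IF and 4.85, 36.5 and 3.96 CPM with DC. Its rise at DC 22 h (4.18 ± 1.08, SE; adjusted p = 0.0246) rests on replicate 2, without which the difference was 2.26 (adjusted p = 0.181), and it also ended without unstimulated replicate 1 (adjusted p = 0.106) or 3 (adjusted p = 0.0996).

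**Figure D4:**
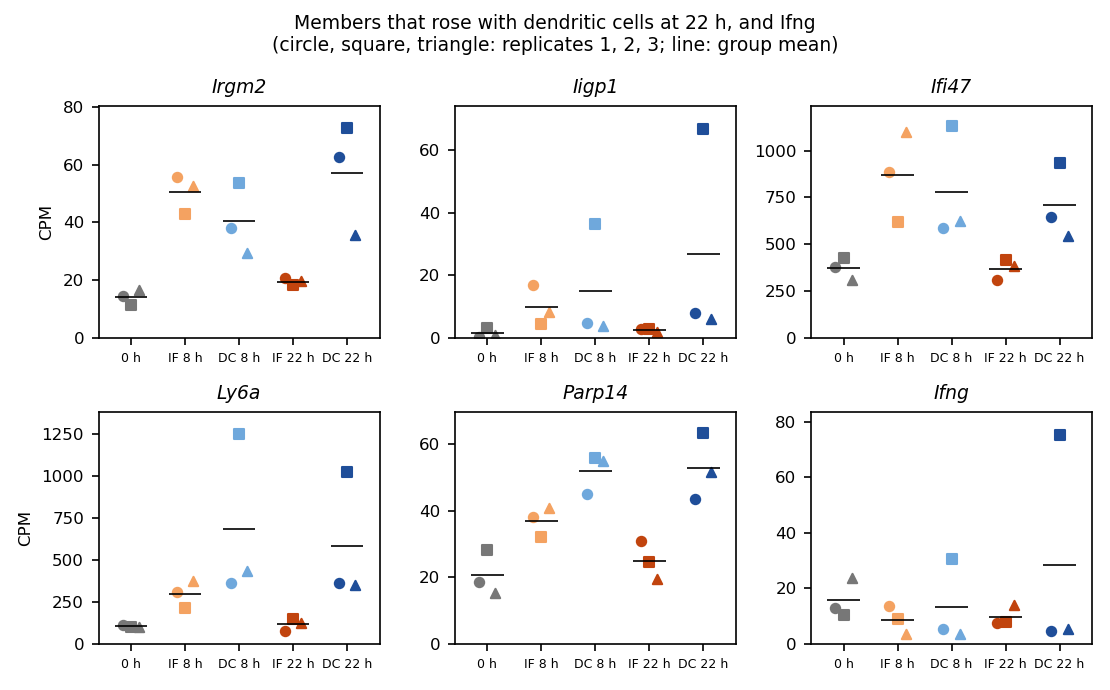
CPM (y axes, linear from 0) in each library of the 5 genes that rose at DC 22 h and of Ifng, by group (x axes); symbols are replicates 1 to 3 and lines are group means. IF 22 h sits near the unstimulated level in each of the 5. The square of both DC groups, replicate 2, is the highest of its group for each of the 5 and for Ifng. It stands furthest above the other replicates for Iigp1, Ly6a and Ifng.

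Of the membrane and secreted proteins, tetherin (Bst2) holds budding virions at the cell surface, viperin (Rsad2) makes a chain-terminating nucleotide with CMPK2, RTP4 binds RNA and chaperones receptors, and LGALS3BP is a secreted glycoprotein. Rtp4 stood at 119, 195 and 152 CPM in unstimulated cells, 15.1, 15.9 and 16.6 CPM at IF 22 h and 143, 133 and 129 CPM at DC 22 h. At 8 h Rtp4 was at 52.6, 29.2 and 71.3 CPM with IF and 126, 153 and 173 CPM with DC. The IF groups stepped down over time without overlap, to -1.60 ± 0.26 at 8 h and -3.29 ± 0.27 at 22 h against unstimulated cells (SE; adjusted p = 0.00101 and 1.57e-06), the lowest p of the 41 genes at 22 h. Lgals3bp stood at 404, 760.0 and 474 CPM in unstimulated cells, 96.9, 144 and 151 CPM at IF 22 h and 284, 344 and 352 CPM at DC 22 h. At 8 h Lgals3bp was at 260.8, 199.9 and 277 CPM with IF and 386, 411 and 432 CPM with DC. Its differences with IF were -1.15 ± 0.22 at 8 h and -2.06 ± 0.23 at 22 h (SE).

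Rsad2 stood at 8.95, 19.2 and 17.2 CPM in unstimulated cells, 1.79, 1.08 and 0.408 CPM at IF 22 h and 2.16, 7.85 and 6.58 CPM at DC 22 h. At 8 h Rsad2 was at 8.39, 0.995 and 3.75 CPM with IF and 4.16, 12.5 and 14.5 CPM with DC. Rsad2 was lower at IF 22 h (log2 difference -3.87 ± 0.73, SE), with a range of -4.44 to -3.06 over the alternatives. Cmpk2, its neighbour in function, stood at 10.9, 34.5 and 33.7 CPM in unstimulated cells, 1.19, 3.35 and 0.612 CPM at IF 22 h and 10.2, 10.7 and 11.5 CPM at DC 22 h. At 8 h Cmpk2 was at 9.10, 5.97 and 0.804 CPM with IF and 8.52, 10.6 and 12.5 CPM with DC. Cmpk2 was lower with IF at both times (-2.27 ± 0.62 and -4.01 ± 0.66, SE).

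Bst2 stood at 13.2, 31.6 and 33.1 CPM in unstimulated cells, 2.50, 8.01 and 9.03 CPM at IF 22 h and 19.2, 24.6 and 12.9 CPM at DC 22 h. At 8 h Bst2 was at 16.6, 13.3 and 23.04 CPM with IF and 15.2, 35.5 and 34.2 CPM with DC. Its IF 22 h call (-1.96 ± 0.46, SE; adjusted p = 0.0184) ended without unstimulated replicate 2 (adjusted p = 0.0758) or 3 (adjusted p = 0.0753).

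The Ly6 genes, which code for small surface proteins held by a lipid anchor, did not pass at IF 22 h. Ly6a (Sca-1) stood at 114, 103 and 104 CPM in unstimulated cells, 76.1, 148 and 126 CPM at IF 22 h and 364, 1024 and 352 CPM at DC 22 h. At 8 h Ly6a was at 309.7, 212 and 372 CPM with IF and 361, 1246 and 436 CPM with DC. It rose with DC at 8 h (2.67 ± 0.47, SE) and 22 h (2.44 ± 0.46, SE), while its IF 22 h level overlapped that of unstimulated cells (0.13 ± 0.44, SE). That difference turned to -0.073 without IF 22 h replicate 2 and to -0.49 with replicate 1 as the only IF 22 h library. Ly6e stood at 1418, 1709 and 1530.3 CPM in unstimulated cells, 933, 1187 and 1169 CPM at IF 22 h and 1638, 1319 and 1922 CPM at DC 22 h. At 8 h Ly6e was at 1217, 1219.7 and 1385 CPM with IF and 1948, 1877 and 1971 CPM with DC. The IF 22 h libraries lay below all 12 others, and the difference just missed the threshold (-0.50 ± 0.15, SE; adjusted p = 0.0533), passing under 4 of the alternatives.

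PARP9 and PARP14 belong to the ADP-ribosyltransferase family, DTX3L is the ubiquitin ligase that works as a complex with PARP9, PARP12 blocks viral translation, and TRIM30A damps inflammatory signalling. All 5 genes of this set were lower at IF 22 h than at DC 22 h, where 1.2% of all genes were. Of the 5, 3 were lower than in unstimulated cells, where 3.44% of all genes were. Parp12 stood at 7.63, 11.02 and 10.9 CPM in unstimulated cells, 1.90, 2.75 and 3.22 CPM at IF 22 h and 12.5, 13.1 and 9.49 CPM at DC 22 h. At 8 h Parp12 was at 10.2, 2.65 and 10.7 CPM with IF and 15.5, 15.5 and 13.4 CPM with DC. Its IF 22 h difference from unstimulated cells was -1.88 ± 0.40 (SE; adjusted p = 0.00924).

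Parp9 stood at 58.6, 54.0 and 48.6 CPM in unstimulated cells, 30.9, 32.3 and 21.5 CPM at IF 22 h and 69.5, 75.5 and 61.1 CPM at DC 22 h. At 8 h Parp9 was at 62.8, 36.5 and 56.5 CPM with IF and 61.7, 79.5 and 73.6 CPM with DC. Parp9 was lower at IF 22 h (log2 difference -0.94 ± 0.22, SE), a call that ended without unstimulated replicate 1 (adjusted p = 0.0644) or 2 (adjusted p = 0.0563) or IF 22 h replicate 3 (adjusted p = 0.104). Dtx3l stood at 206, 236 and 182 CPM in unstimulated cells, 151, 104 and 93.4 CPM at IF 22 h and 276, 278 and 266 CPM at DC 22 h. At 8 h Dtx3l was at 223, 209 and 233 CPM with IF and 216, 240.0 and 212 CPM with DC. Dtx3l was lower at IF 22 h (log2 difference -0.84 ± 0.17, SE), with replicate 1 the highest of the 3. Its call ended without unstimulated replicate 2 (adjusted p = 0.0509) or IF 22 h replicate 3 (adjusted p = 0.0582). Over the alternatives, replicate 1 as the only IF 22 h library among them, the difference ran from -1.08 to -0.46. Parp9 and Dtx3l lie head to head on chromosome 16 with overlapping exons on opposite strands. The use of strand in counting is not given in the sources used here, so their values may not be independent.

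Parp14 stood at 18.5, 28.2 and 15.4 CPM in unstimulated cells, 30.9, 24.5 and 19.5 CPM at IF 22 h and 43.5, 63.4 and 51.6 CPM at DC 22 h. At 8 h Parp14 was at 38.0, 32.2 and 40.7 CPM with IF and 45.1, 55.6 and 54.8 CPM with DC. It rose in the DC groups (1.32 ± 0.24 at 8 h and 1.35 ± 0.24 at 22 h, SE) and at IF 22 h overlapped unstimulated cells (0.26 ± 0.24, SE). Trim30a stood at 131, 157 and 151 CPM in unstimulated cells, 126, 65.5 and 52.0 CPM at IF 22 h and 188, 194 and 219 CPM at DC 22 h. At 8 h Trim30a was at 101, 97.1 and 130.2 CPM with IF and 167, 186 and 219 CPM with DC. Its difference at IF 22 h from unstimulated cells missed the threshold (-0.85 ± 0.25, SE; adjusted p = 0.0573), and IF 22 h replicate 1 stood near the unstimulated level, well above replicates 2 and 3.

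The schlafens, of which SLFN5 and SLFN8 carry a helicase domain and the short SLFN1 does not, restrain proliferation or cleave tRNA, and all 3 lie on chromosome 11. Slfn5 stood at 23.8, 43.4 and 43.1 CPM in unstimulated cells, 5.83, 4.66 and 4.70 CPM at IF 22 h and 14.9, 6.19 and 12.99 CPM at DC 22 h. At 8 h Slfn5 was at 5.71, 6.30 and 11.3 CPM with IF and 13.6, 14.9 and 14.4 CPM with DC. Every stimulated library lay below every unstimulated one, and Slfn5 was lower in all 4 stimulated groups: -2.25 ± 0.36 at IF 8 h, -2.86 ± 0.35 at IF 22 h, -1.36 ± 0.33 at DC 8 h and -1.69 ± 0.33 at DC 22 h (SE). The DC 8 h call ended without any 1 of 5 of the 6 libraries compared, all but unstimulated replicate 1 (adjusted p from 0.0537 to 0.0908). Slfn8 stood at 64.4, 73.6 and 72.2 CPM in unstimulated cells, 30.6, 50.8 and 17.4 CPM at IF 22 h and 62.1, 78.3 and 101 CPM at DC 22 h. At 8 h Slfn8 was at 32.3, 29.5 and 41.8 CPM with IF and 61.9, 62.7 and 60.1 CPM with DC. Its IF 22 h call (-1.098 ± 0.29, SE, adjusted p = 0.0324) ended under 8 of the 14 alternatives. Among these were the fits without any 1 of 5 of the 6 libraries and library totals alone as the scale (adjusted p = 0.0583).

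Slfn1 stood at 369.9, 464 and 351 CPM in unstimulated cells, 479.7, 633 and 467 CPM at IF 22 h and 492, 563 and 618 CPM at DC 22 h. At 8 h Slfn1 was at 662, 511 and 616 CPM with IF and 647, 597 and 782 CPM with DC. All 12 stimulated libraries lay above the highest unstimulated one. The fitted log2 difference from unstimulated cells was 0.59 ± 0.17 at IF 8 h (SE, adjusted p = 0.0443) and 0.77 ± 0.17 at DC 8 h (SE, adjusted p = 0.0112). At IF 22 h the difference of 0.41 ± 0.17 did not pass (SE; adjusted p = 0.177), except with library totals alone as the scale, where it was 0.61 (adjusted p = 0.0299). Slfn1 had no match of the ISRE form in the stretch shown above, and neither had Oasl1, which fell.

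Of the other induced genes, IFI27L2A is a mitochondrial protein, XAF1 opposes the apoptosis inhibitor XIAP and IFI35 is a leucine zipper protein. Ifi27l2a stood at 151, 301 and 223 CPM in unstimulated cells, 56.9, 60.6 and 53.2 CPM at IF 22 h and 173, 236 and 209 CPM at DC 22 h. At 8 h Ifi27l2a was at 143, 91.8 and 180.0 CPM with IF and 224, 329 and 359.7 CPM with DC. It was lower at IF 22 h (log2 difference -1.98 ± 0.27, SE). Xaf1 stood at 24.4, 58.0 and 26.3 CPM in unstimulated cells, 7.62, 3.35 and 3.27 CPM at IF 22 h and 30.5, 29.5 and 35.2 CPM at DC 22 h. At 8 h Xaf1 was at 23.2, 23.9 and 18.2 CPM with IF and 28.9, 40.5 and 34.5 CPM with DC. Xaf1 was lower at IF 22 h (log2 difference -2.96 ± 0.37, SE), with replicates 2 and 3 more than 2-fold below all 13 other libraries. The difference ran from -3.45 to -2.25 over the alternatives.

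Ifi35 stood at 108, 131 and 98.2 CPM in unstimulated cells, 46.7, 63.2 and 64.5 CPM at IF 22 h and 102, 112 and 106 CPM at DC 22 h. At 8 h Ifi35 was at 101, 76.3 and 123 CPM with IF and 102, 158 and 158 CPM with DC. Its difference of -0.95 ± 0.21 (SE) at IF 22 h lost its call without unstimulated replicate 2 (adjusted p = 0.0775).

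The stimuli were then compared with each other at the same time. At 22 h, 28 of the 41 genes were lower with IF than with DC and 0 were higher, against 1.2% and 1.23% of all genes. Below 0 were 40 of the 41 fitted differences, with a median of -1.68 over the 41 and -0.02 over all genes. All IF 22 h libraries lay below all DC 22 h libraries for 38 of the 41, against 9.11% of all genes. This comparison uses the same IF 22 h libraries as the one with unstimulated cells. Irgm2 (-1.55 ± 0.27, SE), Ly6a (-2.31 ± 0.46, SE) and Parp14 (-1.08 ± 0.24, SE), which were not below unstimulated cells with IF, were below DC. Trim30a was lower too (-1.31 ± 0.25, SE). The rest included Isg15 (-4.19 ± 0.55, SE), Ifit1 (-3.65 ± 0.48, SE) and Rtp4 (-3.09 ± 0.27, SE). Slfn1 (-0.08 ± 0.17, SE) and Ifit2 were closest to their DC level. Of the 28, 15 passed whichever single library was left out, and Ly6a (adjusted p = 0.0544), Trim30a (adjusted p = 0.0566) and Parp14 (adjusted p = 0.142) did not without IF 22 h replicate 3. The count was 12 when the fit held only the 2 groups compared, 15 without IF 22 h replicate 3 and 1, Rtp4, with replicate 1 as the only IF 22 h library, when 8 of 11889 genes were called in all. The genes' median was -1.69 in the fit of the 2 groups and -1.76 with replicate 1 alone. Replicate 1 by itself lay below every DC 22 h library for 39 of the 41, against 23.9% of all genes.

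**Figure D5:**
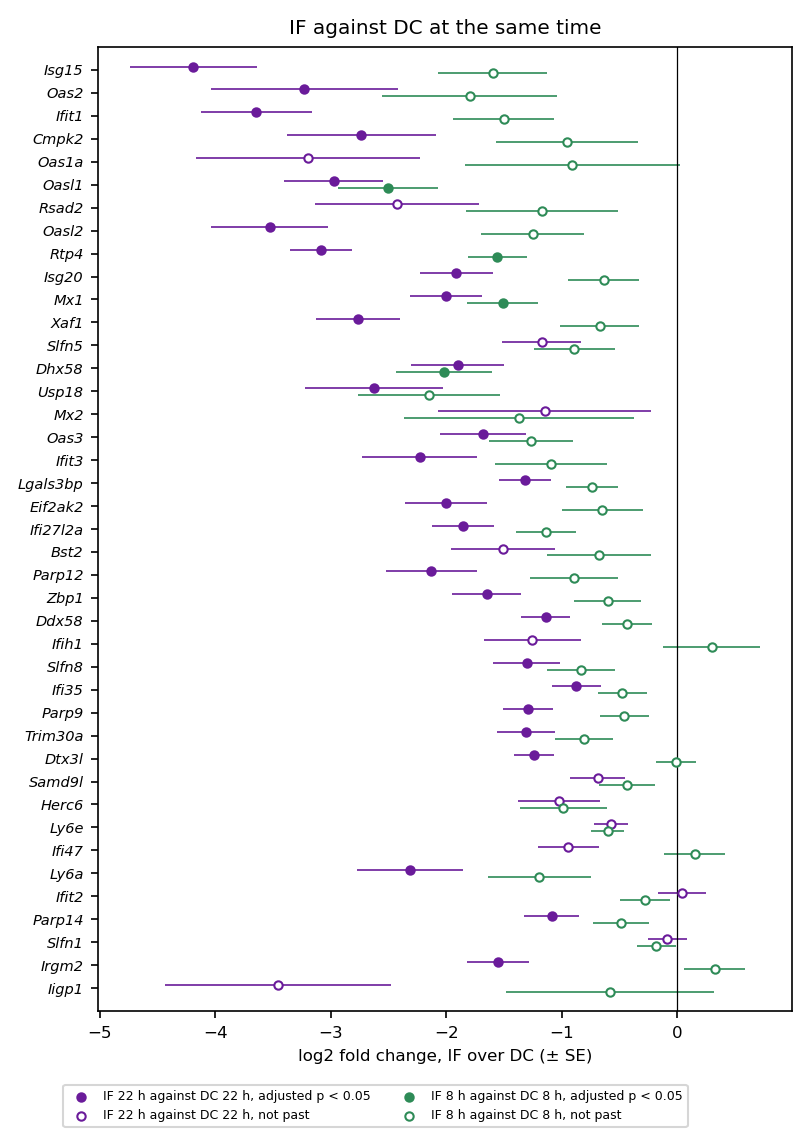
Fitted log2 fold change of IF over DC at the same time (x axis, ± SE, n = 3 libraries a group) for the 41 tested genes (y axis), at 22 h in purple and 8 h in green; filled points passed an adjusted p of 0.05. At 22 h 28 points are filled, all below 0, and at 8 h 4 are, for Oasl1, Rtp4, Mx1 and Dhx58.

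Part of the difference was present at 8 h. With IF, 12 of the 41 were lower than in unstimulated cells and 4 higher, against 4.72% and 3.04% of all genes, with a median of -0.70. Library totals alone as the scale gave 9 lower and 5 higher, with 1113 genes called in all against 840. The lower ones were Cmpk2, Ddx58, Dhx58, Ifit1, Isg20, Lgals3bp, Mx1, Oasl1, Rtp4, Slfn5, Slfn8 and Usp18, and the higher ones Ifi47, Irgm2, Parp14 and Slfn1. The total was 9 without unstimulated replicate 3 and 10 when IF 8 h replicate 3 was dropped. Dhx58, Irgm2, Isg20, Lgals3bp, Mx1, Oasl1, Rtp4 and Slfn5 passed whichever library was left out, and the 8 others lost the call without 1 library or another, with adjusted p-values up to 0.187. With DC at 8 h, 5 were higher (Ifi47, Irgm2, Ly6a, Parp14 and Slfn1) and 1, Slfn5, lower, against 2.75% and 4.07% of all genes, with Irgm2, Ly6a and Parp14 left without unstimulated replicate 3. Directly compared at 8 h, 4 genes were lower with IF than with DC and 0 higher, against 0.434% and 0.231% of all genes: Rtp4 (-1.56 ± 0.25), Oasl1 (-2.51 ± 0.43), Mx1 (-1.51 ± 0.31) and Dhx58 (-2.02 ± 0.42, all SE). Rtp4 alone stayed past the threshold whichever library was left out. All IF 8 h libraries lay below all DC 8 h libraries for 21 of the 41, against 7.7% of all genes. At an unadjusted p under 0.05, 22 of the 41 were lower and 0 higher, against 896 of the 10831 genes in either direction. DESeq2 called 8 of the genes lower, and 195 genes in all. No low-count filter gave 14, and 215 of 17123 genes.

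From 8 h to 22 h with IF, 11 genes fell and 0 rose, against 0.48% and 0.637% of all genes: Dtx3l, Ifi27l2a, Ifi47, Ifit1, Irgm2, Isg15, Isg20, Oasl2, Rtp4, Xaf1 and Zbp1. All IF 22 h libraries lay below all IF 8 h libraries for 24 of the 41, against 9.37% of all genes. The count moved from 3 to 15 as single libraries were left out, with 3 when IF 8 h replicate 3 or IF 22 h replicate 2 was left out and 4 when IF 8 h replicate 1 or IF 22 h replicate 3 was, and was 0 of 42 of the genes tested, and 0 of all genes, with replicate 1 as the only IF 22 h library, where the genes' median was -1.35, against -1.30 with all libraries. From 8 h to 22 h with DC, 0 of the 41 passed by edgeR, with 6 lower and 0 higher at an unadjusted p under 0.05, against 978 of all genes in either direction, and 0 by DESeq2. In a fit of the 2 DC groups alone with the replicate number as a block, added after the results were seen, 2 were lower, Oasl2 (-1.13 ± 0.195, SE; adjusted p = 0.0248) and Oas3 (-1.18 ± 0.202, SE; adjusted p = 0.0247), and 166 of 10182 genes passed in all. Whether the gap between IF and DC itself widened from 8 h to 22 h was tested as an interaction. At the threshold 0 of the 41 passed (smallest adjusted p = 0.113 by edgeR), as did 0 of all 10831 genes, while 16 of the 41 and 858 of all genes had an unadjusted p under 0.05. DESeq2 called 4 of the genes and 40 of the 10831 genes in all, and edgeR without a low-count filter 10 of the genes and 155 of 17123.

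Within a group, the genes tended to be high or low in the same replicate. In unstimulated cells replicate 1 was the lowest of the 3 for 28 of the 41 genes, against 31.3% of all genes, and replicate 2 the highest for 30, against 33% of all genes. At IF 8 h replicate 2, the shallowest library, was lowest for 31, against 36.7% of all genes. At DC 8 h replicate 1 was lowest for 28, against 26.5% of all genes. The pattern was weaker at 22 h. With IF replicate 3 was lowest for 21, against 29.2% of all genes, and replicate 1 for 15, against 41.8%. With DC replicate 1 was lowest for 21, against 25.1%. The genes are thus not independent readings of a group.

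The level of Ifng, the interferon gamma gene, was highest in replicate 2 of the DC groups. It stood at 12.9, 10.3 and 23.7 CPM in unstimulated cells, 13.7, 8.95 and 3.48 CPM at IF 8 h, 5.45, 30.4 and 3.67 CPM at DC 8 h, 7.50, 7.77 and 14.2 CPM at IF 22 h and 4.67, 75.4 and 5.47 CPM at DC 22 h, and passed in no comparison. Replicate 2 was 6.67 times the mean of the other replicates at DC 8 h and 14.9 times at DC 22 h. Iigp1 was 8.28 and 9.50 times their mean in the same libraries, Ly6a 3.13 and 2.86 times, Ifi47 1.87 and 1.57 times, Irgm2 1.59 and 1.48 times and Parp14 1.11 and 1.33 times. Tested genes that did not pass as higher with DC also stood high in that library at 22 h, among them Mx2 at 3.45 times, Oasl2 at 2.20, Ifit3 at 1.95, Usp18 at 1.81, Rsad2 at 1.80 and Dhx58 at 1.79. Mx2 rests on 3, 16 and 8 counts there. Of the 41 genes, 17 had a ratio below 1 at DC 22 h, the lowest being Slfn5 at 0.444 and Oas1a at 0.579, and 10 had one at DC 8 h. The median of this ratio over the 41 genes was 1.15 at 8 h and 1.08 at 22 h, and 0.962 and 0.966 over all genes. No test was made of these ratios, which come from 1 library a time, and the part of interferon gamma in the genes' levels was not tested. Exons of Ifng overlap a predicted gene on the same strand.

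Of the pathway itself, 19 interferon genes were looked for and 2 had a row, Ifng and Ifnl2. Ifnl2 had 1 count in all and was too low to test, and the 17 others, the type I interferon genes among them, were not analysed here. Of the 5 tested receptor genes, Ifnar1 was higher at IF 8 h (0.74 ± 0.20, SE; adjusted p = 0.036) and 0 passed in the 8 other comparisons. At IF 22 h Ifnar1 differed from unstimulated cells by 0.14 ± 0.20 and Ifnar2 by -0.34 ± 0.18 (SE). Of the signalling genes, Irf9, which gives the complex its DNA binding, was lower at IF 22 h than in unstimulated cells (-0.78 ± 0.20, SE; adjusted p = 0.027) and than at DC 22 h (-0.77 ± 0.20, SE; adjusted p = 0.0477). Irf9 stood at 66.6, 99.6 and 77.0 CPM in unstimulated cells, 54.8, 46.5 and 40.4 CPM at IF 22 h and 91.0, 62.4 and 87.8 CPM at DC 22 h, and at 8 h at 73.0, 65.3 and 75.3 CPM with IF and 83.4, 72.4 and 90.6 CPM with DC. Its exons overlap those of Rnf31 on the same strand. Stat2 was lower at IF 22 h than at DC 22 h (-1.40 ± 0.32, SE; adjusted p = 0.0282). With replicate 1 as the only IF 22 h library neither passed: Irf9 was at -0.56 against unstimulated cells (adjusted p = 0.538) and Stat2 at -1.29 against DC at 22 h (adjusted p = 0.634).

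Of the 6 interferon regulatory factors, Irf7, which amplifies type I interferon production, was lower at IF 22 h than in unstimulated cells. It stood at 60.3, 114 and 106 CPM in unstimulated cells, 12.5, 17.0 and 13.6 CPM at IF 22 h and 47.0, 63.5 and 75.1 CPM at DC 22 h, and at 8 h at 45.9, 22.5 and 44.5 CPM with IF and 70.4, 121 and 98.2 CPM with DC. Its differences from unstimulated cells were -1.30 ± 0.30 at IF 8 h and -2.70 ± 0.31 at IF 22 h (SE), and -2.90 (adjusted p = 0.0152) with replicate 1 as the only IF 22 h library. Among 5 inhibitors, Socs1, which blocks the receptor's kinases, rose at DC 8 h (1.29 ± 0.23), DC 22 h (1.43 ± 0.23) and IF 8 h (0.96 ± 0.23, all SE) and was lower at IF 22 h than at DC 22 h (-0.94 ± 0.23, SE). Socs3 was lower with IF at 8 h (-1.85 ± 0.32) and 22 h (-1.13 ± 0.29) and higher with DC at 22 h (1.56 ± 0.29, all SE). With that replicate alone, 0 of the 5 inhibitors passed in a comparison with IF 22 h, and Socs1 was at -1.26 against DC at 22 h (adjusted p = 0.233).

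Of 51 other interferon-induced genes tested, a list that also holds Irf7, 13 were lower and 1 higher at IF 22 h than in unstimulated cells, against 3.44% and 2.63% of all genes, and the list's median was -0.57. Lower were, among others, Ddx60 (-2.68 ± 0.60), a cofactor of RNA sensing, and Plac8 (-1.89 ± 0.20), while Ms4a4c was higher (1.74 ± 0.20, all SE). Against DC at 22 h, 11 were lower and 1 higher, against 1.2% and 1.23% of all genes. From 8 h to 22 h with IF, 11 were lower and 0 higher, against 0.48% and 0.637% of all genes, among them the guanylate-binding protein genes Gbp2 (-2.59 ± 0.47), Gbp3 (-1.58 ± 0.36), Gbp4 (-1.64 ± 0.34), Gbp6 (-2.22 ± 0.51), Gbp7 (-2.28 ± 0.43) and Gbp8 (-1.15 ± 0.22, all SE), which act on parasite vacuoles and are strongly induced by interferon gamma. Cxcl10, a chemokine, was lower too over that time (-5.35 ± 0.86, SE). With replicate 1 as the only IF 22 h library, 3 of 52 were lower and 1, Ms4a4c, higher than in unstimulated cells, and 0 passed against DC at 22 h or IF at 8 h. Against unstimulated cells Ddx60 was then at -1.56, Plac8 at -2.05 and Ms4a4c at 1.55. Against IF at 8 h Gbp7 was then at -1.36 and Gbp8 at -0.98. Over the same time Gbp2 was at -2.88, Gbp3 at -1.80, Gbp4 at -1.67, Gbp6 at -3.22 and Cxcl10 at -5.00.

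Markers of other cells differed between the groups, and their part in the results was not tested. All 23 dendritic cell markers had a row, and 17 could be tested. Against unstimulated cells 2 were higher and 4 lower at IF 22 h, and 2 higher and 5 lower at DC 22 h. At 8 h 1 was higher and 5 lower with IF, and 2 higher and 0 lower with DC. Of all genes, 2.63% were higher and 3.44% lower at IF 22 h, and 3.41% and 4.35% at DC 22 h. At 8 h these shares were 3.04% and 4.72% with IF and 2.75% and 4.07% with DC. The 23 markers summed to 1024 to 1895 CPM in unstimulated cells, 634 to 826 CPM at IF 8 h and 1449 to 1627 CPM at DC 8 h. At 22 h they summed to 651 to 937 CPM with IF and 969 to 1219 CPM with DC. T cells express several of the listed genes, such as Ccr7 and Irf8. Fscn1, a marker of mature dendritic cells, was at 0 to 6.75 CPM in unstimulated cells, 0.268 to 0.663 CPM at IF 8 h, 126 to 168 CPM at DC 8 h, 5.83 to 43.8 CPM at IF 22 h and 72.9 to 94.8 CPM at DC 22 h. Xcr1, a marker of cross-presenting dendritic cells, went the other way, with 9.54 to 45.6 CPM in unstimulated cells, 0.120 to 2.96 CPM at IF 22 h and 0.111 to 0.256 CPM at DC 22 h, and was called lower at both. Wdfy4 was at 4.16 to 7.78 CPM in unstimulated cells and 0 to 0.855 CPM at DC 22 h, where it was called lower. Zbtb46 was at 0 in all unstimulated and IF 8 h libraries, and at 1.17 to 2.28 CPM at DC 8 h, 0.442 to 0.684 CPM at DC 22 h and 0.120 to 0.408 CPM at IF 22 h, where 3, 1 and 8 counts fell on it. Clec9a and Cd209a stayed at or under 2.09 CPM in every library. The 7 plasmacytoid dendritic cell markers, of which Bst2 is 1, summed to 345 to 405 CPM in unstimulated cells. At 8 h they summed to 223 to 240.3 CPM with IF and 230.1 to 252 CPM with DC. At 22 h they summed to 178 to 234 CPM with IF and 365 to 384 CPM with DC. Most of each sum was Ccr9, and Siglech was at no more than 4.44 CPM. Macrophage and monocyte markers, 7 of 9 with a row, summed to at most 17.2 CPM, and B cell markers, 5 of 8 with a row, to at most 37.6 CPM. The 4 of 5 NK cell markers with a row summed to 253 to 308 CPM at IF 22 h and 47.7 to 107 CPM at DC 22 h, nearly all of it Eomes, which CD8+ T cells express too, with Ncr1 at no more than 4.88 CPM and Klra8 at 0 in every library.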

How the data were processed

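RNA of 15 samples in 5 groups of 3 was sequenced by CEL-seq, which reads the 3′ end of transcripts. The authors deposited raw counts per gene for each library. Per the submitters' processing notes, BWA was used and the genome build was mm10. Versions, the counting tool, the use of strand and of molecular identifiers are not given in the sources used here.

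Genes were matched by symbol in the tables, which hold 17493 genes, 370 of them without a count. The function filterByExpr (minimum count 10, minimum total 15) left 10831 genes. One edgeR quasi-likelihood model (edgeR 4.0.16, limma 3.58.1, R 4.3.3) with 5 group means and TMM scaling was fitted to all libraries, and p-values were adjusted by Benjamini-Hochberg over all genes within each comparison (threshold 0.05). Every adjusted p comes from this model, or from the same edgeR procedure refitted under the alternative named beside it, unless DESeq2 (version 1.42.0) is named. SE was derived from the F statistic, and the prior count was 0.125. The low-count limit of 3 counts covers counting error only, while the SE includes the spread between libraries. The procedure was tested on counts simulated with 200 changed genes.

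Values in every library are given for tested members that passed in any comparison, that were at or above 0 at IF 22 h, or that were among the 5 highest on the mean. The 43 members, the other gene lists and the alternatives were chosen with earlier results of these data known. Alternatives were DESeq2 size factors, library totals alone, no low-count filter, a filter at a mean of 10 CPM, a replicate block, DESeq2, a fit of only the groups compared, each library left out, and IF 22 h replicates 2 and 3 left out together. Whether replicate numbers pair the libraries was checked on the deviations of log2 (CPM + 1) from the group means. Same-numbered libraries of DC 8 h and DC 22 h were correlated at 0.160 to 0.486 in 3 of 3 pairs. Of the 6 differently numbered pairs of these groups, 2 were also above 0.1, at up to 0.164. No other 2 groups had all 3 same-numbered pairs above 0.1. These correlations do not settle whether the DC libraries are paired. A fit of the DC groups alone with the block was added after the data were seen. Gene positions and exon overlaps are from GENCODE on GRCm38, and promoters from RefSeq on GRCm38.p6. Results on 1 signalling gene are not reported here.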

Additional observations from a re-analysis of the deposited data

Results flagged for a closer look

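Dtx3l, Parp9 and Trim30a lay on opposite sides of unstimulated cells with the 2 stimuli at 22 h: every IF library lay below, and every DC library above, every unstimulated library. This was so for 3 of the 41 tested antiviral genes (7.32%) and for 32 of the 10831 genes tested (0.295%). The difference between the stimuli, tested directly by edgeR, was -1.24 for Dtx3l (adjusted p = 0.000941), -1.29 for Parp9 (adjusted p = 0.00333) and -1.31 for Trim30a (adjusted p = 0.0103) on the log2 scale. With replicate 1 as the only IF 22 h library the differences were -0.86 for Dtx3l (adjusted p = 0.216), -1.15 for Parp9 (adjusted p = 0.291) and -0.67 for Trim30a (adjusted p = 0.718). The call for Trim30a also ended without IF 22 h replicate 2 (adjusted p = 0.0763) or 3 (adjusted p = 0.0566), and in a fit of the 2 groups alone it was at an adjusted p of 0.144 and Dtx3l at 0.0524. None of the 3 passed in DC at 22 h against unstimulated cells, Trim30a did not pass in IF at 22 h either (adjusted p = 0.0573), and Dtx3l and Parp9 share exon sequence.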

How the results depend on the processing

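The 28 genes lower at IF 22 h than in unstimulated cells numbered 27 to 32 under 6 other ways of fitting and 22 with a filter at a mean of 10 CPM, which left 31 of the genes to test, and 20 to 28 with 1 library left out. Without IF 22 h replicates 2 and 3 they numbered 13, and the counts for IF against DC at 22 h and for IF 22 h against IF 8 h fell to 1 and 0, while the genes' medians were -2.19, -1.76 and -1.35, against -1.98, -1.68 and -1.30. A fit that held only the 2 groups compared gave 12 for IF against DC at 22 h (70 genes in all, against 263) and 7 for IF 22 h against IF 8 h (100 genes in all, against 121). Without a low-count filter, IF against DC at 8 h gave 14, IF 22 h against IF 8 h 22 (502 of 17123 genes in all), DC 22 h against DC 8 h 2 (251 genes in all) and the interaction 10. DESeq2 gave 8 for IF against DC at 8 h, 18 for IF 22 h against IF 8 h (366 of 10831 genes in all) and 4 for the interaction. The cause of these shifts was not tested. With 1 library left out, the counts ran from 15 to 28 for IF against DC at 22 h, 1 to 4 at 8 h, 4 to 7 for DC 22 h, 9 to 12 for IF 8 h and 3 to 6 for DC 8 h against unstimulated cells, 3 to 15 for IF 22 h against IF 8 h, 0 to 0 for DC 22 h against DC 8 h and 0 to 3 for the interaction. No called gene changed sign in any alternative. Of genes not called, Ifi47 at IF 22 h turned to 0.19 with library totals alone, 0.0068 with no filter and positive values when unstimulated replicate 1 or 2 or IF 22 h replicate 1 was dropped (range over single libraries left out -0.13 to 0.10). Ly6a turned to -0.49 without IF 22 h replicates 2 and 3 and to -0.073 without replicate 2 (range -0.073 to 0.36). Against unstimulated cells, library totals alone moved the median of all genes at 22 h to 0.22 with IF and 0.37 with DC, and at 8 h to 0.26 with IF and 0.30 with DC.

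Across all groups, 4 of 30 pairs of libraries with the same number, and 8 of 60 others, had deviations correlated above 0.1. With the replicate number as a block, 28 genes were lower at IF 22 h than in unstimulated cells, 28 lower than at DC 22 h and 12 lower than at IF 8 h, and 0 passed between the DC times. The block ended 6 calls, with adjusted p-values from 0.0545 to 0.0657: Mx1 at DC 22 h, Slfn1, Slfn8 and Usp18 at IF 8 h, all against unstimulated cells, Oas2 for IF against DC at 22 h and Mx1 for IF against DC at 8 h. The fit of the 2 DC groups alone with the block gave 2 for DC 22 h against DC 8 h.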
